A study of Mus musculus with 54 samples.

Results

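The genes described here are the nuclear genes for the subunits of oxidative phosphorylation, in mouse bone marrow-derived macrophages (BMDMs) that responded to a Toll-like receptor ligand with or without the gene N4bp1. They were taken by name, as protein-coding genes whose symbol begins with Ndufa, Ndufb, Ndufc, Ndufs, Ndufv, Uqcr, Cox4 to Cox8 or Atp5 or is Sdha, Sdhb, Sdhc or Sdhd, without pseudogene symbols. Of 52636 gene identifiers in these data, 93 matched, and the 85 with a summed count of at least 540 over all 54 libraries were kept. By role these were 7 core and 29 accessory subunits of complex I, 4 subunits of complex II, 8 of complex III, 14 of complex IV and 15 of the ATP synthase. The remaining 8 were Ndufaf1 to Ndufaf8, which are assembly factors of complex I and no subunits, but which the name rule also takes. The 8 genes below the minimum were Cox7b2 and Cox8c, each without a count, Cox8b with 15 counts in all, Ndufa4l2 with 26, Atp5g2 with 33, Atp5l with 79, Cox4i2 with 165 and Cox6b2 with 411. All 85 members passed the filter on low counts, so none of the comparisons leaves a member out.

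RNA was sequenced from BMDMs of C57BL/6N wild-type (WT) mice and of N4bp1 knockout (KO) mice, grown from femur and tibia marrow in medium with recombinant M-CSF. N4bp1, a protein with RNA-binding domains, is known as a brake on NF-kB activation. Cells stayed untreated or received, for 2, 4, 6 or 8 h, Pam3 (Pam3csk4, a synthetic lipopeptide ligand of TLR2 with TLR1) or R837 (imiquimod, a ligand of TLR7). This gave 18 groups of 3 libraries, with each replicate a culture from a separate mouse per the labels, against which the Y-linked counts given below stand for WT cells. The sources used here do not give the strain of the KO mice, the age of the animals or the deleted part of N4bp1, and N4bp1 counts were present in KO cells (36.2 CPM ± 5.28 SD, n = 3 untreated, against 64.7 ± 1.02 in WT), with a KO minus WT difference that passed the test in all 9 conditions. CPM is the read count per 1 M counts of the scaled library.

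Oxidative phosphorylation is carried out in the inner mitochondrial membrane. Complexes I (NADH dehydrogenase) and II (succinate dehydrogenase) feed electrons through ubiquinone and complex III to cytochrome c, complex IV passes them to oxygen, and the ATP synthase uses the proton gradient built by complexes I, III and IV to make ATP. A few core subunits are encoded by mitochondrial DNA and all others by nuclear genes, which are transcribed from many chromosomes and whose promoters often hold sites for NRF1, ETS-family factors such as GABP, and YY1. Macrophages activated through Toll-like receptors are known for a shift towards glycolysis and for remodelled use of the respiratory chain and of succinate.

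Promoters of 5 members are shown because the members differ in the motifs they hold and in what they did after ligand. Each line gives 250 bases before to 50 bases after the start site from RefSeq (GRCm38.p6), read 5′ to 3′ on the gene's strand, and capitals mark exact matches, on either strand, of the NRF1 motif CATGCGC, the ETS motif CCGGAAG or the YY1 motif AAGATGG.
Ndufaf4: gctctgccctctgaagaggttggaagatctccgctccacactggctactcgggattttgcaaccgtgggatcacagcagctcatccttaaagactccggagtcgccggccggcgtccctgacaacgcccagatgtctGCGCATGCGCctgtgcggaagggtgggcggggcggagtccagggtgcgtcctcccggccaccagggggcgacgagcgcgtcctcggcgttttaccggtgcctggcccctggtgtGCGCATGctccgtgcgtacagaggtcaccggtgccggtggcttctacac
Cox6a1: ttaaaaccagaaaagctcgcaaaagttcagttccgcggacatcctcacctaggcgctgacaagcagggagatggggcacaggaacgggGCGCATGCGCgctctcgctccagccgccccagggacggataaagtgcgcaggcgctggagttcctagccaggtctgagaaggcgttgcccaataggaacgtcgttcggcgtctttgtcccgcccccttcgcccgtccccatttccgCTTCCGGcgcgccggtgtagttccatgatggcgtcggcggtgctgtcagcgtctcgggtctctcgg
Ndufs4: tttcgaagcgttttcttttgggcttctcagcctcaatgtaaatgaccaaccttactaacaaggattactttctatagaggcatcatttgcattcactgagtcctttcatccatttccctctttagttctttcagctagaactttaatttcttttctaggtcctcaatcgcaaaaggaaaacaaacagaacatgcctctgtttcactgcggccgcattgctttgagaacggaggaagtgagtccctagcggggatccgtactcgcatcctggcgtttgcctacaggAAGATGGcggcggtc
Atp5b: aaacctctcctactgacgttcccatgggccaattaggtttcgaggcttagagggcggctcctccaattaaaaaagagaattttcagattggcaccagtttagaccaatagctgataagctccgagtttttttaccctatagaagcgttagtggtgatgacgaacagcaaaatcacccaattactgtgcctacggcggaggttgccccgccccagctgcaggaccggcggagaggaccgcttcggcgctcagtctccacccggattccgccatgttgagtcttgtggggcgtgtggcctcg
Ndufaf7: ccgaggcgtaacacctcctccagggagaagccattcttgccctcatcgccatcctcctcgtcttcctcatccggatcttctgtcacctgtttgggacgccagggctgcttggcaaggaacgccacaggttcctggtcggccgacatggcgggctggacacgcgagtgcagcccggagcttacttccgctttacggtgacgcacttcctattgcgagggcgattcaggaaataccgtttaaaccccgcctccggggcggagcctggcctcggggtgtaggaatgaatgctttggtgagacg
The Ndufaf4 promoter (chr4:24897833-24898132, + strand) held 3 NRF1 matches, a forward and a reverse match that overlap in a palindrome and a reverse match close to the start site. Cox6a1 (chr5:115348909-115349208, - strand) held the same palindrome, counted as 2 NRF1 matches, and 1 ETS match, and Ndufs4 (chr13:114388045-114388344, - strand) held 1 YY1 match downstream of its start site. Atp5b (chr10:128083057-128083356, + strand) and Ndufaf7 (chr17:78936885-78937184, + strand) held none of these letters. Among the 71 members with a RefSeq promoter, 13 (18.3%) held an NRF1 match, against 4.41% of all 27025 genes with one. An ETS match stood in 17 (23.9%, against 9.93% of all), a YY1 match in 12 (16.9%, against 7.28%), and any of these motifs in 34 (47.9%, against 19.5%), with no promoter of a member in which matches of different motifs overlap. A match is a description of letters and not of binding. Any match was found in 9 of 17 members that rose at 8 h of Pam3, 1 of 4 that fell and 24 of 50 that did not pass the test, and at 8 h of R837 in 6 of 13, 2 of 7 and 26 of 51.

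The libraries held 20.03 to 45.9 M counts (median 29.9 M), and members took 0.460 to 0.836% of them. Summed markers of macrophages stood at 17710 to 29710 CPM in every library, and those of T and NK cells at 1.02 CPM at most. Over WT and KO libraries the medians were 273.5 and 249.1 CPM for summed megakaryocyte markers and 207.6 and 150.2 CPM for neutrophil markers. They were 141.6 and 133.6 CPM for monocyte markers and 98.95 and 121.8 CPM for osteoclast markers. Summed B and plasma cell markers had a median of 101.9 CPM over KO libraries and 50.7 CPM over WT ones, and stromal and endothelial markers 33.8 and 55.5 CPM. The WT libraries fell into 3 sets of 9 by their counts of Y-linked genes, with 162 to 207 CPM, 57.3 to 77.7 CPM or at most 0.160 CPM, while all 27 KO libraries had at most 0.208 CPM. Xist, which coats the silenced X chromosome of female cells, stood at 17.0 to 26.8, 80.8 to 134 and 88.0 to 141 CPM in these sets and at 61.8 to 239 CPM in KO libraries. The middle set, with Y-linked counts and Xist together, goes against 1 mouse per replicate, so n = 3 below counts libraries, which may not be single mice. Each of the 9 WT groups held 1 library of each set, under replicate numbers that differ between the Pam3 groups and the others, and Igha, an antibody gene of plasma cells, moved with the sets (0.333 to 1.61, 2.15 to 4.90 and 9.36 to 15.1 CPM, against 23.6 to 91.2 in KO libraries). Y-linked counts moved with genotype but also varied within every WT group, so a fit with the set as a term, added after seeing the data, is given beside the results it moves. That term does not separate sex from other differences between the sources. Only 12263 genes had a count in KO Pam3 8 h replicate 3, while every other library had 16097 to 18039. In these bulk libraries fewer cells of a type and less RNA per cell cannot be told apart.

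In untreated WT cells the members spanned a wide range of levels. Per kilobase of exon, the median over members was 38.8 CPM, from 0.378 for Atp5g1 to 418 for Cox4i1. By role, the median was 87.3 CPM per kb in complex II, 70.7 in complex IV, 65.3 in complex III, 55.9 in the ATP synthase, 34.2 in the complex I core, 26.5 among its accessory subunits and 5.27 among its assembly factors. The highest members were Cox4i1, the ubiquitous isoform of subunit IV of complex IV (418 ± 19.96 CPM per kb, n = 3), Atp5b, the catalytic beta subunit of the ATP synthase (241 ± 7.73), and Atp5g3 and Atp5a1, its c ring and alpha subunits (182 ± 6.47 and 181 ± 7.88, which did not differ beyond their spread). The lowest were Atp5g1, Cox6a2, Ndufb4, Atp5s and Cox7c. Low levels of Atp5g1 and Cox7c are uncertain, since 34.0% and 47.1% of the 50-base stretches of their transcripts occur in no other gene of the annotation, and how reads of the other stretches were assigned is not known here.

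Tissue isoforms were unequal. The muscle and heart isoform Cox6a2 stood at 1.01 CPM per kb in untreated WT cells, against 109 for the ubiquitous Cox6a1, and Cox7a1 stood at 3.36, against 82.5 for Cox7a2. Cox5a, at 88.3 CPM per kb, was far above Cox5b at 5.63, which is its partner subunit in complex IV and no alternative to it. The share of unique stretches is not given here for Cox5b, nor for Ndufb4 above, so their low levels are left uninterpreted. Of the c-subunit genes of the ATP synthase, which encode the same mature protein, Atp5g3 stood at 182 CPM per kb, Atp5g1 at 0.378 and Atp5g2 at 0.0263, but no 50-base stretch of the Atp5g2 transcript is unique in the annotation and its level is not interpretable. Cox6b2, the testis isoform, stood at 0.529 CPM per kb against 161 for Cox6b1.

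**Figure D1:**
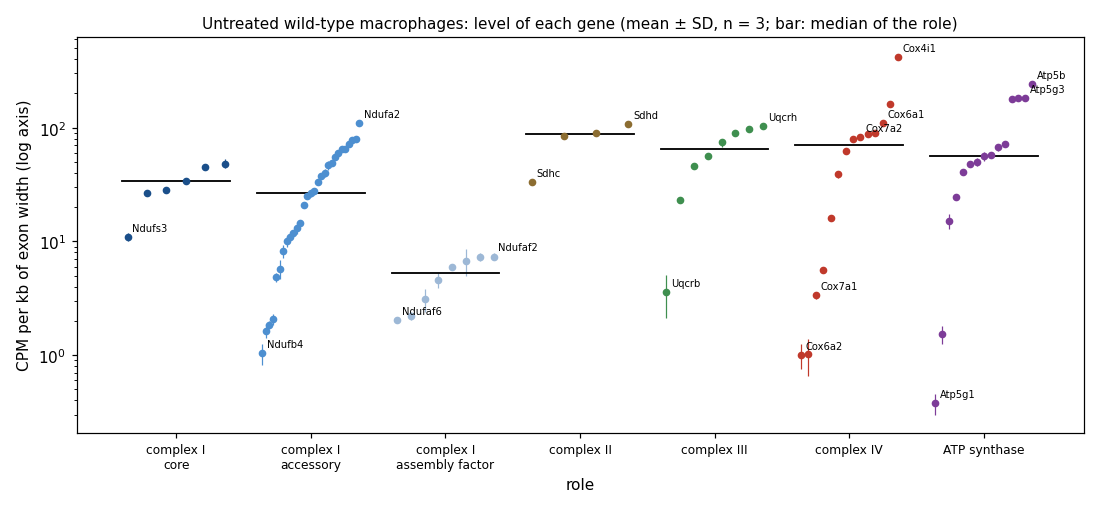
Level of 84 of the 85 members in untreated WT cells, in CPM per kilobase of exon on a log axis, by role; points are means of 3 libraries with their SD, and bars are the medians of the roles over all 85. Cox4i1, at 418 CPM per kb, stands highest, and the assembly factors of complex I lie low, with a median of 5.27.

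With TMM scaling and the fit over all libraries, ligand changed a minority of the members, and those that changed mostly rose. After 2 h of Pam3 8 members rose in WT cells and 3 fell against untreated cells, by edgeR's quasi-likelihood test at an adjusted p under 0.05 over all genes tested, while 22.1% of all 14970 genes rose and 18.9% fell. At 4 h 10 rose (25.3% of all genes) and 5 fell (23.7%), at 6 h 16 rose (26.8%) and 5 fell (26.7%), and at 8 h 22 rose (26.3%) and 4 fell (25.9%). In either direction 41.0, 49.0, 53.5 and 52.2% of all genes passed at these times, so the share of members that passed was lower at each. After 2 h of R837 8 members rose (22.2% of all genes) and 3 fell (19.7%), and at 4 h 11 rose (26.4%) and 8 fell (27.4%). At 6 h 17 rose (28.9%) and 10 fell (30.3%), and at 8 h 17 rose (28.3%) and 7 fell (29.1%), with 42.0, 53.8, 59.2 and 57.3% of all genes past the test in either direction. The median log2 change of the members was 0.10, 0.09, 0.16 and 0.21 over the times of Pam3 and 0.08, 0.09, 0.12 and 0.12 over those of R837, and that of all genes lay between -0.06 and 0.03. All these comparisons share the same 3 untreated libraries. With the Y-linked set as a term every one of these calls in WT cells was kept. The sets were balanced over the WT groups, so that term could barely move these changes, and the outcome says little about them. Fits on only the groups compared gave more calls in WT cells at every time of Pam3 and at 2, 4 and 6 h of R837. In those fits a majority of the members passed at 6 h of Pam3. The shares of all genes given above belong to the fit over all libraries, and those of the smaller fits are not given here. Whether the share of members was also the lower one in the smaller fits was not tested.

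These directions are relative to the scaling of the libraries. With library totals alone in place of TMM factors the median of all genes moved by -0.27 to -0.29 for Pam3 and by -0.28 to -0.56 for R837, and then the rises and falls over the times of Pam3 were 1 and 22, 1 and 26, 1 and 21, and 5 and 17, while R837 gave 0 and 18, 0 and 57, 0 and 57, and 2 and 44. Under that scaling 27.1, 31.8, 25.9 and 25.9% of the members passed in either direction over the times of Pam3, against 47.3, 52.5, 56.6 and 55.9% of all genes. Over those of R837 it was 21.2, 67.1, 67.1 and 54.1% of the members, against 48.8, 66.3, 68.8 and 64.3% of all genes, so at 4 to 8 h of R837 most members passed, and at 4 h their share was not the lower one. The gap between the median of the members and that of all genes was 0.06, 0.10, 0.19 and 0.24 log2 units for Pam3 and 0.07, 0.13, 0.18 and 0.18 for R837 under either scaling. Rises below are therefore relative to the median gene. Over 215 other protein-coding genes with an exon width under 1000 bases and a mean of at least 10 CPM, a list made after the values were seen, the median change was 0.17, 0.15, 0.17 and 0.23 for Pam3 and 0.16, 0.13, 0.17 and 0.16 for R837. Single libraries also moved the counts. Without WT untreated replicate 2 the calls at 8 h of Pam3 fell from 26 to 15, those at 6 and 8 h of R837 from 27 to 16 and from 24 to 15, and those at 2 h of each ligand from 11 to 7. The 2 h count of Pam3 was also 7 without Pam3 2 h replicate 3, the 4 h count was 8 in place of 15 without Pam3 4 h replicate 1, and the 2 h count of R837 was 7, 7 and 6 without WT untreated replicate 3, R837 2 h replicate 2 and R837 2 h replicate 3. Of the 26 calls at 8 h of Pam3, 13 were kept whichever library was left out, and of the 24 at 8 h of R837, 9.

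**Figure D2:**
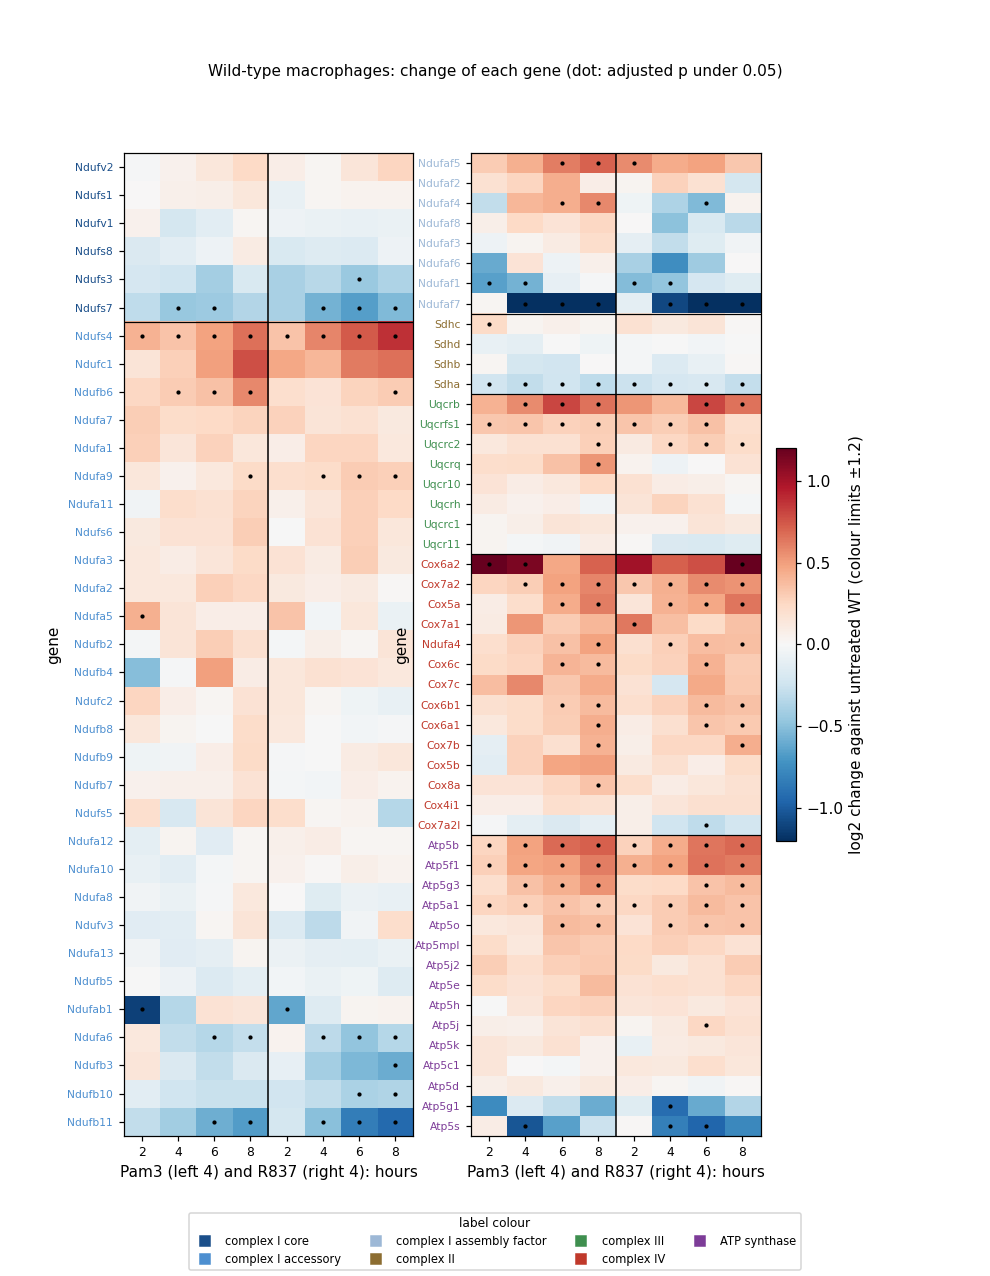
Log2 change of 84 of the 85 members in WT cells against untreated cells, by role and by ligand and hours; red is higher and blue lower, colours end at 1.2 in either direction, and a dot marks an adjusted p under 0.05. Rises stand mainly in complex IV and the ATP synthase, and falls in Ndufaf7, Ndufb11, Ndufa6, Ndufs7 and Sdha.

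By role, over the 8 comparisons of WT cells with untreated cells, 10 of 14 complex IV members, 6 of 15 ATP synthase members and 4 of 8 complex III members rose at least at 1 time. Among the accessory subunits of complex I 4 of 29 rose and 5 fell, and in its core 0 of 7 rose and 2 fell. Of the assembly factors 2 of 8 rose and 3 fell, with Ndufaf4 in both counts, and in complex II Sdhc rose and Sdha fell. In all 27 members rose and 14 fell at some time, and 45 did not pass at any. That is 31.8, 16.5 and 52.9% of the members, while 42.1% of all 14970 genes rose at some time, 45.3% fell and 20.1% did not pass at any. The share that rose was above 42.1% in complexes III and IV and below it in every other role, and in no role did the share that fell reach 45.3%. The differences between roles were not tested. The median change at 8 h was 0.43 (Pam3) and 0.33 (R837) in complex IV and 0.30 and 0.18 in the ATP synthase, and with library totals alone it was 0.15 and -0.11, and 0.02 and -0.26.

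**Figure D3:**
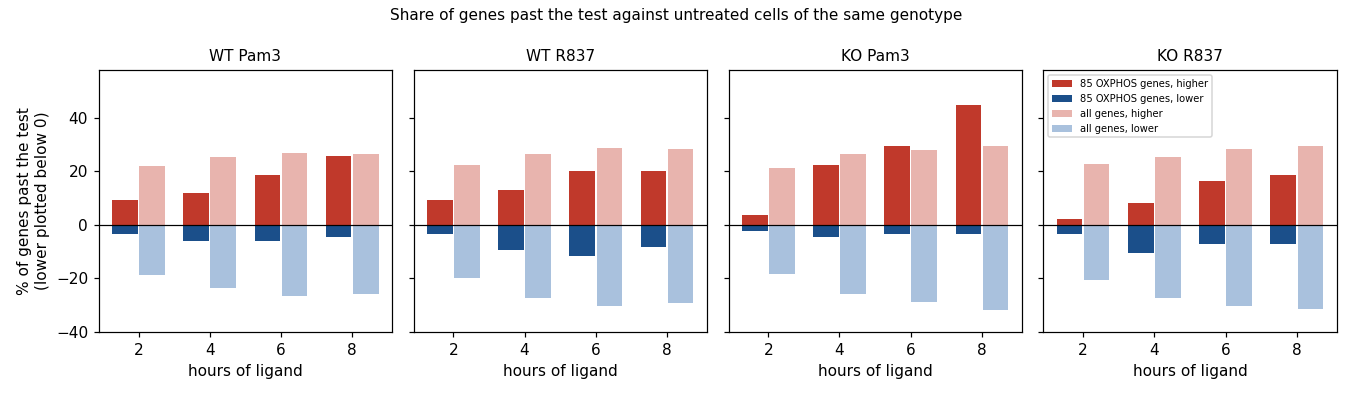
Percentage of genes that rose or fell (plotted below 0) at each time of each ligand in WT and KO cells, for the 85 members and for all 14970 genes tested. In WT cells 22 of 85 members were higher and 4 lower at 8 h of Pam3, and in KO cells 38 and 3, by the fit over all 54 libraries. Fits on only the groups compared gave more calls of members in WT cells and fewer in KO cells at that time, and their shares of all genes are not given.

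In the core of complex I, whose members carry the flavin and the iron-sulfur clusters that move electrons from NADH, most members did not pass the test. Ndufs7 (chr10:80249121-80256794, GRCm38), which binds the last iron-sulfur cluster before ubiquinone, stood at 44.9, 41.2 and 46.8 CPM in untreated WT cells. It stood at 25.5, 30.1 and 28.4 CPM at 6 h of R837 and at 33.3, 29.6 and 29.0 CPM at 8 h. All 6 of those libraries lay below the untreated ones. The log2 change was -0.66 ± 0.19 (SE) at 6 h (adjusted p = 0.00223, edgeR) and -0.53 ± 0.19 at 8 h (adjusted p = 0.0137, edgeR), and the 8 h call was lost without R837 8 h replicate 3 (adjusted p = 0.0505, edgeR). At 4 and 6 h of Pam3 Ndufs7 fell by 0.45 and 0.44 on the log2 scale, calls that were lost in 4 and 5 of the 6 leave-outs. Ndufs3 fell at 6 h of R837 by 0.44 ± 0.18 (adjusted p = 0.0327, edgeR), a call lost in 4 of 6 leave-outs, and 60.3% of its 50-base stretches are unique.

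Among the accessory subunits of complex I, which surround the core and stabilise it, Ndufs4 rose at all 4 times of both ligands. This subunit (chr13:114287795-114388258, GRCm38), whose loss in mice causes a Leigh-like encephalopathy, stood at 24.7, 24.4 and 24.97 CPM in untreated WT cells. It stood at 38.1, 42.3 and 36.6 CPM at 8 h of Pam3 and at 39.3, 42.9 and 54.4 CPM at 8 h of R837. Every treated library of those times lay above every untreated one. The change was 0.66 ± 0.14 (adjusted p = 9.97e-05, edgeR) and 0.88 ± 0.14 (adjusted p = 6.14e-07, edgeR), and both calls were kept in every leave-out, while those at 2 h of Pam3, 4 h of Pam3 and 2 h of R837 were lost in 2, 5 and 5 of 6 (adjusted p up to 0.189, edgeR). Scaled by library totals alone, all 8 changes stayed above 0, and those at 8 h, 0.38 and 0.43, still passed while the earlier ones did not.

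Ndufb11 (chrX:20615326-20617619, GRCm38), a membrane-arm subunit, went the other way. Its level was 7.91, 9.86 and 9.49 CPM in untreated WT cells, 6.01, 4.36 and 6.67 CPM at 8 h of Pam3 and 4.95, 4.51 and 4.76 CPM at 8 h of R837. The treated libraries did not overlap the untreated ones at either. It fell by 0.67 ± 0.18 (adjusted p = 0.00164, edgeR) and 0.94 ± 0.18 (adjusted p = 2.57e-05, edgeR) on the log2 scale. An exon of Rbm10 on the other strand overlaps this gene, and since the sources used here give no strand setting, reads of the pair cannot be told apart. Ndufa6, a peripheral subunit, stood at 32.3, 33.7 and 35.7 CPM in untreated cells and at 24.7, 23.7 and 24.9 CPM at 6 h of R837, with no overlap. It fell there by 0.47 ± 0.13 (adjusted p = 0.00125, edgeR), and its smaller fall at 8 h of Pam3 (0.29) was lost in 5 of 6 leave-outs.

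Ndufab1 encodes the mitochondrial acyl carrier protein, which is both a subunit of complex I and the carrier of mitochondrial fatty acid synthesis (chr7:122085403-122101886, GRCm38). Its change was early and short. Untreated WT libraries stood at 7.88, 6.01 and 7.58 CPM. At 2 h of Pam3 they stood at 3.52, 3.94 and 2.38 CPM, all below the untreated range. At 4 h they stood at 5.03, 6.23 and 5.63 CPM and at 8 h at 7.29, 9.13 and 7.33 CPM, which overlap it. The change at 2 h was -1.12 ± 0.21 (adjusted p = 1.63e-05, edgeR) and kept its call in every leave-out, and at 2 h of R837 it was -0.62 ± 0.20 (adjusted p = 0.0106, edgeR), lost without R837 2 h replicate 3 (adjusted p = 0.0697, edgeR). From 4 h on no comparison of it in WT cells passed. Of its 50-base stretches 68.8% are unique in the annotation.

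The largest change of any member in WT cells was in an assembly factor of complex I, Ndufaf7. This protein is an arginine methyltransferase that acts during assembly of the complex (chr17:78937136-78948052, GRCm38). It stood at 11.9, 10.9 and 8.78 CPM in untreated WT cells and at 9.41, 9.23 and 10.4 CPM at 2 h of R837, which overlap. At 6 h of Pam3 it stood at 3.35, 3.00 and 2.57 CPM and at 8 h of R837 at 2.54, 2.18 and 2.86 CPM. The groups did not overlap from 4 h on, with either ligand. The change was -1.29 ± 0.24, -1.82 ± 0.25 and -1.26 ± 0.24 at 4, 6 and 8 h of Pam3 and -1.10 ± 0.24, -1.47 ± 0.25 and -2.05 ± 0.26 at those of R837. The largest adjusted p of these was 0.000142 (edgeR), every call was kept in every leave-out and under every other setting, and the range over settings at 8 h of R837 was -2.49 to -2.02.

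Ndufaf1, which acts early in the assembly of the membrane arm, fell at 2 and 4 h of each ligand. It stood at 9.12, 8.93 and 8.50 CPM untreated and at 5.83, 6.00 and 5.11 CPM at 2 h of Pam3, below all untreated libraries. The change was -0.65 ± 0.18 (adjusted p = 0.00315, edgeR) at 2 h of Pam3 and -0.52 ± 0.18 at 2 h of R837 (adjusted p = 0.017, edgeR). The R837 call was lost without R837 2 h replicate 2 or 3 (adjusted p up to 0.121, edgeR). At 4 h the changes were -0.56 and -0.47, lost without Pam3 4 h replicate 1, and without WT untreated replicate 1 or R837 4 h replicate 3. At 8 h the difference from untreated cells was -0.02 ± 0.18 and -0.15 ± 0.18, and neither passed. Ndufaf5, a hydroxylase of Ndufs7, rose at 8 h of Pam3 by 0.71 ± 0.23 (adjusted p = 0.00757, edgeR), a call that was lost without WT untreated replicate 2 or Pam3 8 h replicate 1 (adjusted p up to 0.124, edgeR), and its calls at 6 h of Pam3 and 2 h of R837 were lost in 2 and 4 leave-outs.

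In complex II, which oxidises succinate to fumarate, Sdha fell in all 8 comparisons. Sdha (chr13:74322254-74350280, GRCm38) is the flavoprotein that binds succinate, and stood at 258, 245 and 238 CPM untreated, at 185, 217 and 197 CPM at 8 h of Pam3 and at 221, 199 and 187 CPM at 8 h of R837. All treated libraries of these times lay below the untreated ones. The fall was small, 0.31 ± 0.07 on the log2 scale (adjusted p = 0.000408, edgeR) and 0.29 ± 0.07 (adjusted p = 0.000716, edgeR), and both calls were kept in every leave-out. Those at 2 and 6 h of Pam3 were lost without Pam3 2 h replicate 3 and WT untreated replicate 1, and those at 4 and 6 h of R837 without WT untreated replicate 1 or replicate 3 of the ligand (adjusted p up to 0.174, edgeR). Sdhb, the iron-sulfur subunit, and Sdhd, a membrane anchor, passed at no time, and the other anchor, Sdhc, passed only at 2 h of Pam3 (0.23 ± 0.08, adjusted p = 0.025, edgeR), a call lost in 4 of 6 leave-outs. So in each comparison from 4 h on the catalytic subunit was the complex II member that passed.

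In complex III, which moves electrons from ubiquinol to cytochrome c, Uqcrfs1, the Rieske iron-sulfur protein (chr13:30540308-30545362, GRCm38), rose from 2 h. It stood at 65.4, 61.7 and 62.0 CPM untreated, at 76.5, 81.3 and 78.7 CPM at 2 h of Pam3 and at 76.9, 77.5 and 77.1 CPM at 8 h. Every treated library was higher than every untreated one. The change at 2 h was 0.32 ± 0.09 with Pam3 (adjusted p = 0.00387, edgeR) and 0.34 ± 0.09 with R837 (adjusted p = 0.00247, edgeR), and these were kept in every leave-out. The later calls, with changes of 0.28 to 0.35, were lost without WT untreated replicate 2, and that at 6 h of Pam3 also without Pam3 6 h replicate 1 (adjusted p up to 0.149, edgeR). At 8 h of R837 the change of 0.20 did not pass. Scaled by library totals alone, its changes were 0.03 and 0.06 at 2 h, and at 4 and 6 h of R837 it was lower by the test, at -0.21 and -0.22. Uqcrc2, a core protein of the complex, stood at 107, 107 and 107 CPM untreated and at 140, 126 and 126 CPM at 8 h of Pam3, and rose by 0.29 ± 0.09 (adjusted p = 0.00407, edgeR), a call lost without WT untreated replicate 2 (adjusted p = 0.0662, edgeR). Its rises of 0.25, 0.30 and 0.22 at 4, 6 and 8 h of R837 were lost without the same library, and with library totals alone they were falls, of 0.27, 0.26 and 0.22 on the log2 scale. Uqcrb rose by 0.65 ± 0.24 at 8 h of each ligand, but it stood at only 2.77, 1.26 and 1.70 CPM untreated, the Pam3 libraries overlapped these (2.10 to 4.12 CPM) and the R837 libraries did not (2.85 to 3.32 CPM). Both calls were lost in 3 of 6 leave-outs (adjusted p up to 0.279, edgeR), and 56.6% of its 50-base stretches are unique. Cyc1, the cytochrome c1 subunit, which the name rule does not take, rose by 0.43 ± 0.12 and 0.40 ± 0.12 at 8 h (adjusted p = 0.00156 and 0.00297, edgeR).

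In complex IV, which reduces oxygen to water, 8 of 14 members rose at 8 h of Pam3 with TMM scaling. At 8 h of R837 7 rose, and none fell at either, while the shares of all genes that rose are given above. With library totals alone only 5.88% of all 85 members were higher at 8 h of Pam3 (17.4% of all genes). At 8 h of R837 it was 2.35% (16.5% of all genes). Cox5a (chr9:57521274-57532426, GRCm38), a nuclear subunit on the matrix side, stood at 56.1, 55.8 and 59.0 CPM untreated. At 6 h of Pam3 it stood at 83.6, 75.6 and 72.8 CPM and at 8 h at 95.6, 84.5 and 82.2 CPM, and at 8 h of R837 at 86.7, 84.1 and 95.9 CPM. All of these lay above the untreated libraries. The change at 8 h was 0.62 ± 0.13 (adjusted p = 0.000113, edgeR) and 0.64 ± 0.13 (adjusted p = 5.72e-05, edgeR), kept in every leave-out. With library totals alone it was 0.34 and 0.20, where the R837 value did not pass (adjusted p = 0.184, edgeR), and at 4 and 6 h of R837 it turned from 0.42 and 0.46 to -0.09 and -0.10.

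Cox7a2, the widespread isoform of subunit VIIa, stood at 52.5, 55.3 and 55.2 CPM untreated and at 86.3, 79.0 and 79.0 CPM at 8 h of Pam3, with no overlap, and rose by 0.58 ± 0.12 (adjusted p = 7e-05, edgeR) and, at 8 h of R837, by 0.54 ± 0.12 (adjusted p = 0.000186, edgeR). Both calls were kept in every leave-out, and with library totals alone they were 0.30, which passed, and 0.09, which did not. Cox7a2l, a related protein that joins complexes III and IV into supercomplexes, did not rise, and fell at 6 h of R837, a call lost in 4 of 6 leave-outs. Cox6a2, the muscle isoform, gave the largest rise of any member in WT cells, at a very low level. It stood at 0.664, 0.524 and 0.863 CPM untreated and at 1.31, 2.30 and 1.62 CPM at 2 h of Pam3, which did not overlap. The change was 1.34 ± 0.44 (adjusted p = 0.0113, edgeR) and the call was lost without WT untreated replicate 2 or Pam3 2 h replicate 2 (adjusted p up to 0.0717, edgeR). It also passed at 4 h of Pam3 (1.13 ± 0.43) and at 8 h of R837, calls lost in 4 and 2 leave-outs. Cox4i1, the highest member per kilobase, stood at 329, 302 and 329 CPM untreated and at 415, 321 and 352 CPM at 8 h of Pam3, and passed at no time in WT cells.

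In the ATP synthase, Atp5b, Atp5a1 and Atp5f1 rose at all 4 times of both ligands. Atp5b (chr10:128083273-128090391, GRCm38) stood at 477, 462 and 447 CPM untreated. With Pam3 its libraries stood at 549, 571 and 533 CPM at 2 h, at 650, 628 and 665 CPM at 4 h, at 740, 752 and 730 CPM at 6 h and at 784, 738 and 749 CPM at 8 h. Untreated, 2 h, 4 h and 6 h libraries did not overlap each other, and those of 6 and 8 h did. The change was 0.25, 0.49, 0.68 and 0.71 ± 0.07 at these times and 0.27, 0.44, 0.64 and 0.69 ± 0.07 with R837 (adjusted p at 8 h = 1.67e-11 and 2.85e-11, edgeR), and every call was kept in every leave-out. With library totals alone it was 0.43 at 8 h of Pam3 and 0.25 at 8 h of R837, and both passed, while at 2 h of each ligand and at 4 h of R837 it turned to -0.03, -0.01 and -0.07.

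Atp5a1, which forms the catalytic head together with Atp5b, changed less, from 547, 527 and 501 CPM untreated to 645, 651 and 653 CPM at 8 h of Pam3 (0.31 ± 0.06, adjusted p = 2.82e-05, edgeR) and by 0.34 ± 0.06 at 8 h of R837 (adjusted p = 4.32e-06, edgeR). Atp5f1, a subunit of the peripheral stalk, rose by 0.61 ± 0.10 and 0.62 ± 0.10 at 8 h (adjusted p = 1.36e-06 and 9.39e-07, edgeR), from 80.2, 77.1 and 71.9 CPM to 122, 116 and 112 CPM with Pam3. Its call at 2 h of Pam3 was lost in 3 of 6 leave-outs (adjusted p up to 0.0916, edgeR). By library totals alone, the 8 h changes of Atp5a1 were 0.03 and -0.10 and those of Atp5f1 0.33 and 0.18, of which only the 0.33 passed. Of the 50-base stretches of Atp5f1 61.3% are unique in the annotation. The untreated libraries of Atp5a1 and of Atp5f1 lay below all 8 h libraries. Atp5g3 rose at 8 h of Pam3 by 0.54 ± 0.12 (adjusted p = 0.000132, edgeR). Atp5s, a coupling factor with a low level, stood at 2.37, 2.93 and 2.04 CPM untreated and 0.986, 1.49 and 1.13 CPM at 4 h of Pam3, and fell by 1.02 ± 0.35 (adjusted p = 0.0121, edgeR), a call lost without Pam3 4 h replicate 1 (adjusted p = 0.0594, edgeR).

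**Figure D4:**
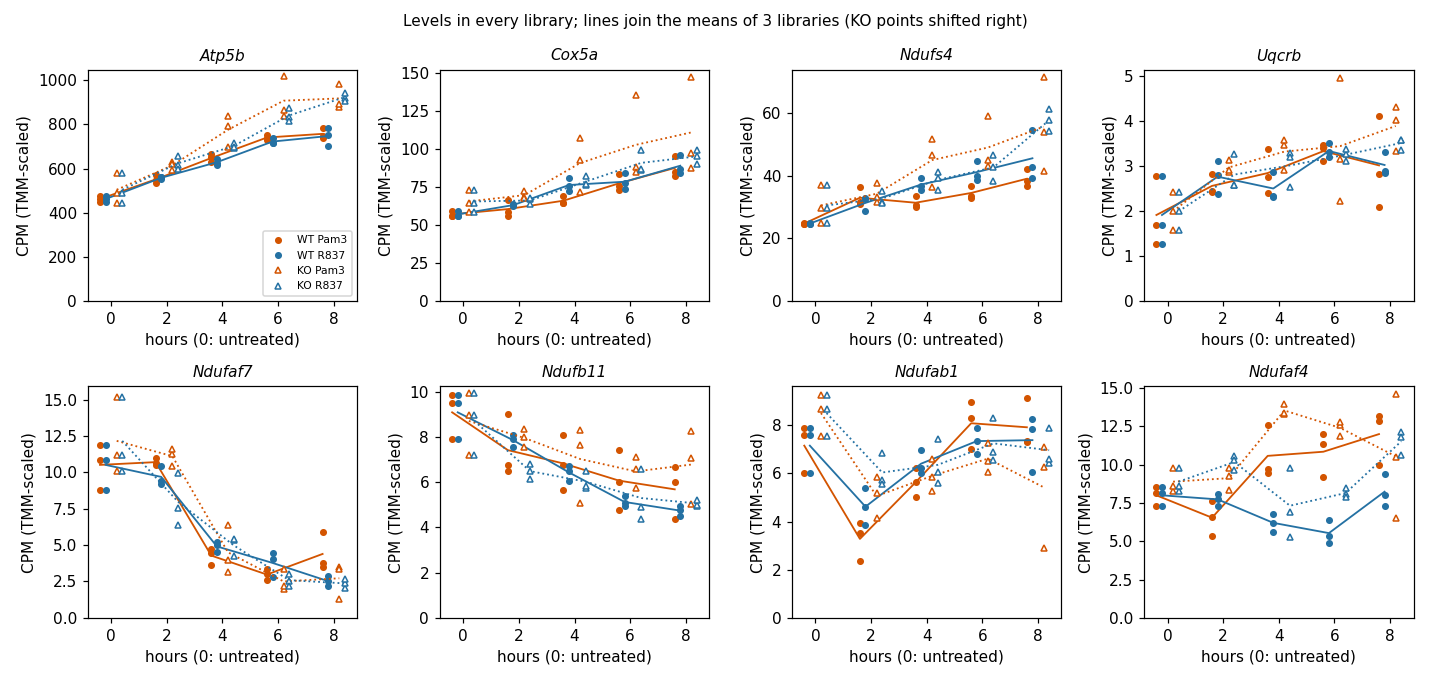
Level in CPM of 8 members in every WT library and every KO library (open triangles, moved right) by hours of Pam3 or R837, with untreated cells at 0 h; points are single libraries and lines join the means of 3. Atp5b, Cox5a and Ndufs4 stand above untreated cells at 8 h, Ndufaf7 and Ndufb11 below, and Ndufab1 is low at 2 h.

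Between the ligands the members differed little with TMM scaling and the fit over all libraries. R837 against Pam3 in WT cells gave no call at 2 h, where 2 members had an unadjusted p under 0.05, limma voom and DESeq2 also called 0 and 4.78% of all genes passed. At 4 h 2 members were lower with R837 (21.9% of all genes passed, 11.5% lower), at 6 h 1 (22.7%, 10.5% lower) and at 8 h 2 (11.5%, 4.37% lower), and none was higher, while library totals alone gave 19, 27 and 5 lower (28.3, 30.8 and 11.8% of all genes) and 0 higher. The calls with TMM scaling were all in assembly factors of complex I, and none in a subunit. Those with library totals alone at 4 and 6 h outnumber the assembly factors among the members, so they took in subunits. Without WT Pam3 8 h replicate 2, WT R837 8 h replicate 2 or replicate 3 the 8 h count was 0, without Pam3 or R837 replicate 1 of that time it was 1, and the 4 h count was 1 without any of its 6 libraries.

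Ndufaf4, which acts with Ndufaf3 in early assembly of complex I, carried this difference (chr4:24898083-24905001, GRCm38). It stood at 7.33, 8.53 and 8.13 CPM in untreated WT cells. At 6 h it stood at 9.17, 11.3 and 12.0 CPM with Pam3 and at 4.86, 5.32 and 6.41 CPM with R837. At 4 h it stood at 12.6, 9.43 and 9.69 CPM and at 5.63, 6.17 and 6.80 CPM. The ligand groups lay apart at both times, with untreated cells between them. R837 minus Pam3 was -0.77 ± 0.18 at 4 h (adjusted p = 0.00123, edgeR) and -0.97 ± 0.19 at 6 h (adjusted p = 7.34e-05, edgeR), kept in every leave-out, and -0.53 ± 0.18 at 8 h (adjusted p = 0.0476, edgeR), lost in 4 of 6. Its change against untreated cells was 0.44 ± 0.18 at 6 h of Pam3 and -0.53 ± 0.19 at 6 h of R837, opposite in sign, calls that were lost in 5 leave-outs and without R837 6 h replicate 1. At 8 h of Pam3 it rose by 0.58 ± 0.18 (adjusted p = 0.00602, edgeR), kept in every leave-out. Ndufaf8 was lower with R837 at 4 h by 0.73 ± 0.24 (adjusted p = 0.0241, edgeR), which was lost in 6 of 6 leave-outs. Ndufaf7 was lower with R837 at 8 h by 0.78 ± 0.26 (adjusted p = 0.041, edgeR), which was lost in 4 of 6 (adjusted p up to 0.284).

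In KO cells the ligands also raised more members than they lowered in most comparisons. After 2 h of Pam3 3 members rose (21.3% of all genes) and 2 fell (18.5%) against untreated KO cells, after 4 h 19 rose (26.6%) and 4 fell (25.9%), after 6 h 25 rose (28.1%) and 3 fell (28.9%), and after 8 h 38 rose (29.6%) and 3 fell (31.9%). With R837 2 rose (22.8%) and 3 fell (20.7%), then 7 rose (25.5%) and 9 fell (27.3%), 14 rose (28.5%) and 6 fell (30.5%), and 16 rose (29.6%) and 6 fell (31.4%). In either direction 39.8, 52.5, 57.0 and 61.5% of all genes passed over the times of Pam3 and 43.4, 52.9, 59.0 and 61.0% over those of R837. Library totals alone gave 0 and 22, 1 and 16, 2 and 20, and 11 and 15 for Pam3, and 0 and 44, 0 and 61, 1 and 53, and 2 and 52 for R837, with the median of all genes moved by -0.27 to -0.48. In either direction that was at most 30.6% of the members for Pam3, against 45.7, 55.4, 60.9 and 65.0% of all genes, and 51.8, 71.8, 63.5 and 63.5% for R837, against 50.3, 62.7, 66.1 and 66.7%. The 2 h count of Pam3, 5 in all, was 9 without KO untreated replicate 2 and 3 without KO untreated replicate 3 or Pam3 2 h replicate 1. The 4 h count of 23 was 14 without KO untreated replicate 3, and the 6 h count of 28 was 17 without KO untreated replicate 1. These tests use 1 estimate of the spread over all groups. When only the groups compared were fitted, the counts at 2, 6 and 8 h of Pam3 were 3, 17 and 10 in place of 5, 28 and 41. At 2 h of R837 it was 8 in place of 5. The shares of all genes in these smaller fits are not given here, so these counts were not compared with all genes. With R837 the 2 h count of 5 was 2 without replicate 1 or 3 of that time, and the 4 h count of 16 was 10 without replicate 3.

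KO and WT cells were then compared at each condition. In untreated cells no member passed (0.882% of all genes did), and 10 had an unadjusted p under 0.05, while limma voom and DESeq2 also called 0. At 2 h of Pam3 none passed (1.43% of all genes), 10 had an unadjusted p under 0.05, and voom called 0 and DESeq2 1. At 4 h of Pam3 13 members were higher in KO and none lower (6.42% of all genes passed, 3.33% higher and 3.09% lower), and at 6 h 12 and none (8.00%, 3.90% and 4.10%). At 8 h 27 were higher and 2 lower (23.9%, 11.4% and 12.4%). With R837 none passed at 2 h (2.69% of all genes; 5 members had an unadjusted p under 0.05 and both other tools called 0) or at 4 h (10.4%; 4 members, and each other tool called 1). At 6 h of R837 2 were higher (16.5%, 6.76% and 9.70%) and at 8 h 5 (15.9%, 7.17% and 8.74%), with none lower. The median difference was 0.15 in untreated cells, 0.10, 0.23, 0.26 and 0.27 over the times of Pam3 and 0.02, 0.05, 0.08 and 0.12 over those of R837.

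These counts rest on few libraries. At 4 h of Pam3 the 13 became 6, 2 and 4 without WT replicate 1, 2 and 3 of that time, and 0 and 1 without KO replicate 1 and 2. At 6 h the 12 became 6, 2 and 2 without WT replicate 1, 2 and 3, 25 without KO replicate 1 and 0 without KO replicate 3, and none of the calls at 4 or 6 h was kept in every leave-out. At 8 h the 29 became 15 and 16 without WT replicate 2 and 3 of that time, and 5 calls were kept. The 2 calls at 6 h of R837 became 0 when replicate 1 or 2 of either genotype was left out and 1 without replicate 3 of either, and the 5 at 8 h became 2 without WT replicate 1, WT replicate 2 or KO replicate 2 and 3 without KO replicate 1. When each comparison was fitted on its own 6 libraries alone, 6 members passed at 4 h of Pam3 and 0 at 6 and 8 h. The shares of all genes that passed in those fits are not given here.

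With the Y-linked set as a term, which sets KO cells against WT cells at the level of the WT libraries without Y-linked counts, fewer of these calls stood. At 4 h of Pam3 9 members were higher (7.68% of all genes passed in either direction), at 6 h 4 (8.38%) and at 8 h 20, with 1 lower (22.3%), and 7 of the 13, 4 of the 12 and 18 of the 29 calls were kept. At 6 and 8 h of R837 2 and 4 were higher (20.1 and 17.3%), with 1 of 2 and 3 of 5 kept. At 2 h of Pam3, and at 2 and 4 h of R837, 2 members passed in place of 0 (4.34, 6.07 and 13.7%). The median difference over members was 0.09 in untreated cells, 0.07, 0.20, 0.23 and 0.24 over the times of Pam3 and -0.02, 0.00, 0.02 and 0.09 over those of R837. Sdha, named here after its values were seen, was higher in KO cells under this term at all 4 times of R837, by 0.24, 0.28, 0.21 and 0.18 (adjusted p up to 0.0425, edgeR), and did not pass at any of them without it.

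At 4 to 8 h of Pam3 other short transcripts were also higher in KO cells by their median. Their part in the counts above was not tested beyond the values given here. Over the times of R837 the median KO minus WT difference of 215 other short genes was -0.01, 0.005, 0.02 and 0.05. There 0, 1, 6 and 11 of them were higher and 1, 9, 14 and 8 lower. Over the 215 other short genes the median KO minus WT difference was 0.20, 0.26 and 0.25 at 4, 6 and 8 h of Pam3, and 16, 24 and 62 of them (7.44, 11.2 and 28.8%) were higher. Genes of cytosolic ribosomal proteins had medians of 0.33, 0.38 and 0.38, with 3, 8 and 24 of 68 higher. The median deviation of the members from their group mean ran from -0.23 (KO Pam3 8 h replicate 1) to 0.34 (KO Pam3 8 h replicate 2) across libraries and was never over 0.0521 away from that of the short genes. With a smooth of each library's deviation on exon width as an offset, an alternative added after seeing the data, 10, 6 and 29 members were higher at those times and 0, 0 and 2 lower. With that offset 6.33, 7.58 and 26.7% of all genes passed in either direction, and at 6 h the share of members was not above that of all genes.

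Summed over members, the KO libraries spread more than the WT ones. At 8 h of Pam3 the sum was 6186, 8389 and 6502 CPM in KO and 6224, 5550 and 5728 CPM in WT cells, where the WT library at 6224 CPM is that without Y-linked counts. The groups overlapped. At 6 h the sums were 5994, 6262 and 7969 CPM in KO and 5713, 5656 and 5579 CPM in WT, which did not overlap. In untreated cells the KO sums of 5174, 6157 and 4811 CPM covered the WT sums of 4997, 4811 and 4912 CPM.

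**Figure D5:**
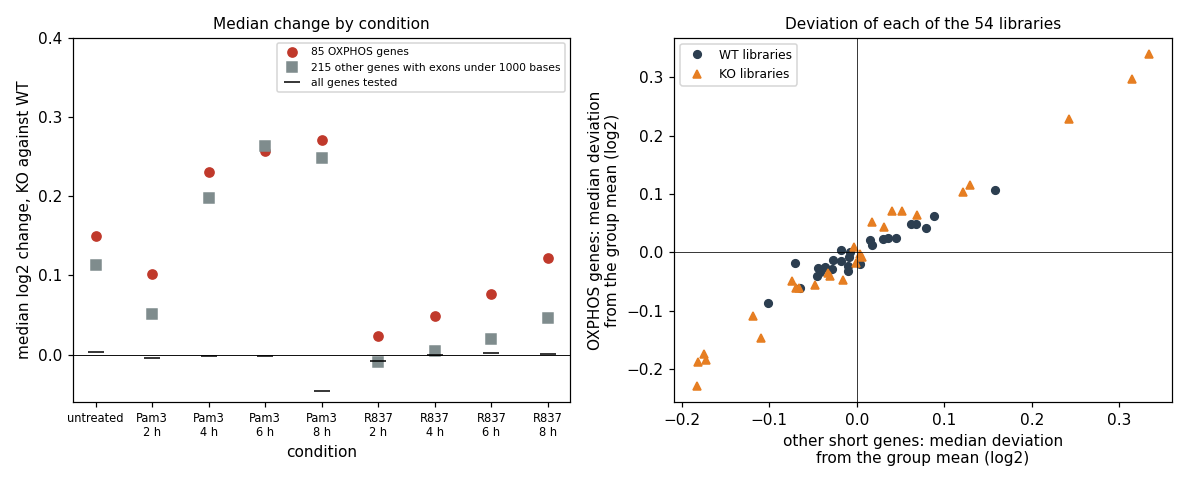
Median KO minus WT log2 difference of the members and of 215 other short genes in each condition, and the median deviation of the members in each library against that of the short genes. The medians of both sets are highest at 4 to 8 h of Pam3, and the deviations of both sets lie within 0.0521 of each other in every library, from -0.228 to 0.339 for the members.

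The members with the smallest adjusted p at 8 h of Pam3 were in complexes II to IV. Cox7b, a small membrane subunit of complex IV encoded on the X chromosome (chrX:106015700-106022450, GRCm38), stood at 30.0, 35.4 and 40.3 CPM in KO and 21.6, 22.8 and 19.5 CPM in WT cells. All KO libraries were above all WT ones. The difference was 0.73 ± 0.13 (adjusted p = 6.61e-05, edgeR), and it was kept in every leave-out. No member passed at 8 h of Pam3 in the fit of the libraries of this comparison alone, so neither did Cox7b. In untreated cells it was 0.28 ± 0.13 and did not pass (adjusted p = 0.462, edgeR). The other X-linked members, Ndufa1 and Ndufb11, differed by 0.24 ± 0.13 and 0.25 ± 0.18 at 8 h of Pam3, and neither passed.

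Uqcrfs1 stood at 91.3, 113 and 102 CPM in KO and 76.9, 77.5 and 77.1 CPM in WT cells at 8 h of Pam3, with no overlap, and differed by 0.40 ± 0.09 (adjusted p = 0.00103, edgeR). Cox7a2 stood at 86.3, 141 and 121 CPM and at 86.3, 79.0 and 79.0 CPM, where the lowest KO and the highest WT library are level at this rounding, and differed by 0.51 ± 0.12 (adjusted p = 0.00148, edgeR). Both were kept in every leave-out, but neither passed in the fit of these 6 libraries alone (adjusted p up to 0.19). Sdhc, higher by 0.35 ± 0.08 (adjusted p = 0.00185, edgeR), was lost without KO replicate 3 (adjusted p = 0.0599, edgeR), and Cox7a2l, higher by 0.49 ± 0.13 (adjusted p = 0.00371, edgeR), without KO replicate 2 (adjusted p = 0.0641, edgeR). The 2 members that were lower, Ndufaf7 and Ndufab1, were named after their values were seen, and neither passed with the Y-linked set as a term (adjusted p = 0.0588 and 0.116, edgeR). Ndufab1 stood at 6.28, 7.11 and 2.89 CPM in KO against 7.29, 9.13 and 7.33 CPM in WT. Both calls were lost without WT replicate 2, WT replicate 3 or KO replicate 3, the last being the library with counts in few genes. The adjusted p was then up to 0.367 for Ndufaf7 and 0.404 for Ndufab1 (edgeR).

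Atp5b was higher in KO cells from 4 h of Pam3 and at 6 and 8 h of R837. At 8 h of R837 it stood at 919, 944 and 907 CPM in KO and 704, 754 and 784 CPM in WT cells, with no overlap, a difference of 0.31 ± 0.07 (adjusted p = 0.00201, edgeR) that was kept in every leave-out. Atp5a1 stood at 765, 809 and 788 CPM in KO and 638, 677 and 680 CPM in WT cells there, also without overlap, and differed by 0.24 ± 0.06 (adjusted p = 0.00299, edgeR). At 8 h of Pam3 Atp5b stood at 878, 983 and 891 CPM and 784, 738 and 749 CPM, with a difference of 0.28 ± 0.07 (adjusted p = 0.0042, edgeR). In the fit of the libraries of that comparison alone Atp5b did not pass. Its differences at 4 and 6 h of Pam3, 0.26 and 0.29, were lost in 4 of 6 leave-outs and without KO Pam3 6 h replicate 3, and that at 6 h of R837, 0.22, in 5 of 6. Ndufs4 was higher in KO cells at 4, 6 and 8 h of Pam3 by 0.52, 0.51 and 0.51, calls that were lost in 4, 3 and 1 of 6 leave-outs, and the library concerned at 8 h was KO replicate 2 (adjusted p = 0.116, edgeR). With the Y-linked set as a term the calls of Ndufs4 at 4 and 6 h did not pass (adjusted p = 0.0503 and 0.0535, edgeR). Ndufaf4 was higher in KO at 6 h of R837 by 0.55 ± 0.19 (adjusted p = 0.0312, edgeR), lost in 5 of 6 and with that term (adjusted p = 0.0824, edgeR).

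Whether the response to ligand differed between genotypes was tested over the 4 times at once. For Pam3 1 member passed, Ndufab1 (adjusted p = 0.0479, edgeR), while 4.64% of all genes did, and 3 members had an unadjusted p under 0.05. For R837 none passed (7.47% of all genes), 0 had an unadjusted p under 0.05, and limma voom also called 0. Over the leave-outs the Pam3 count ran from 0 to 3, and it was 0 in most of them. The response itself, tested in the same way in WT cells, passed in 26 members for Pam3 (68.5% of all genes) and in 27 for R837 (69.6%).

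Genes next to oxidative phosphorylation changed in part much more. Of 18 glycolysis genes tested, 15 rose and 2 fell at 8 h of Pam3 in WT cells with a median change of 1.23, and 16 rose and 1 fell at 8 h of R837 with a median of 1.49. Of 17 genes of the tricarboxylic acid cycle 8 rose and 3 fell with Pam3, and 7 and 4 with R837. The 10 mitochondrially encoded subunits tested gave 0 calls at 8 h of Pam3 and 1 lower at 8 h of R837, with medians of -0.34 and -0.32. Of all 14970 genes 7809 and 8585 passed there. Mitochondrially encoded genes took 0.0769 to 0.243% of the counts of a library, and how their reads were assigned is not known here. Few calls therefore do not show steady levels of these subunits. Acod1, which makes itaconate, an inhibitor of succinate dehydrogenase, rose from 1.27, 2.96 and 1.70 CPM untreated to 2812, 3219 and 3020 CPM at 8 h of Pam3, at which Sdha fell by 0.31. Among regulators of mitochondrial genes, Esrra, a nuclear receptor that drives them, rose by 1.13 ± 0.12 and 1.02 ± 0.12 at 8 h of Pam3 and R837 (adjusted p = 1.72e-11 and 2.82e-10, edgeR). Tfam, the activator of mitochondrial DNA transcription, fell by 0.53 ± 0.14 at 2 h of Pam3 (adjusted p = 0.00155, edgeR) and did not pass at 8 h. Ucp2, an inner membrane carrier, fell by 0.78 ± 0.08 and 0.80 ± 0.08 at 8 h (adjusted p = 3.59e-12 and 1.88e-12, edgeR).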

How the data were processed

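RNA was sequenced from 54 BMDM libraries, single-end with the TruSeq RNA kit v2, per the labels' protocols. The authors deposited tables of raw read counts per gene with RPKM values beside them. GSNAP and GRCm38 are named per the submitters' processing notes, while the GSNAP version, annotation and strand setting were not given in the sources used here. Only the deposited counts were tested, and the deposited RPKM values entered no test. Counts were scaled by TMM (factors 0.830 to 1.28), genes with low counts were removed (filterByExpr, minimum count 10, minimum total 15), which left 14970, and 1 coefficient per group was fitted over all 54 libraries with edgeR 4.0.16 (robust quasi-likelihood, R 4.3.3), so all groups share 1 estimate of the spread. P-values were adjusted by Benjamini-Hochberg over all genes within a comparison, and the threshold was 0.05. SE is the log2 change divided by the square root of F. The tests were tried on simulated counts with known changes. Alternatives were DESeq2 1.42.0, limma 3.58.1 (voom), other scalings, no filter, only the groups compared, a replicate block, leaving out each library and, added after seeing the data, an offset for exon width and a term for the set of a library by its Y-linked counts (Ddx3y, Eif2s3y, Kdm5d and Uty; under 1, under 100 or more CPM).

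The members and lists were chosen with earlier results of these data known. Members were named where they had the largest changes past the test at a time, the smallest F-test p in their role, the smallest adjusted p between genotypes or for an interaction, the largest difference between ligands or the highest and lowest level per kilobase, and isoform sets were named whatever their values. The single values of 1 member are not reported here, and it stays in all counts and medians. Uniqueness is the share of 50-base stretches of a gene's transcripts found in no other gene of the reference annotation. The labels say that each replicate came from an individual mouse and not that equal numbers share a mouse. In the 9 WT groups equal numbers do not mark equal Y-linked sets between Pam3 and the other groups, so a block on the number pairs libraries of different sets there. Deviations from the group means correlated at 0.0973 to 0.451 between libraries of the same set over the 12 comparisons within WT, and at most at 0.156 between different sets. These ranges overlap through the middle set. Its r was 0.123 at 8 h of Pam3 and 0.103 at 2 h of R837, below the largest between different sets there (0.156 and 0.106). The set is the closer pairing in these data for the other sets, and less clearly so for the middle one. Deviations of same-numbered libraries from their group means correlated above 0.1 in every pair for the 4 R837 times in WT cells and for 4 h of R837 in KO cells (r from 0.103 to 0.384), and a block on the number moved no count of calls there beyond 1.5 times. Each comparison has 3 libraries a group, and pooled over genes, counting error is small beside their spread at 20.03 M counts or more. It was not compared with the spread gene by gene. The statement therefore does not cover members with low levels, such as Cox6a2, Uqcrb, Atp5s and Atp5g1.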

Additional observations from a re-analysis of the deposited data

Results flagged for a closer look

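The response of Ndufab1 to Pam3 differed between genotypes by the test of the interaction itself (adjusted p = 0.0479, edgeR). In WT cells it stood at 7.88, 6.01 and 7.58 CPM untreated and at 3.52, 3.94 and 2.38 CPM at 2 h of Pam3, and in KO cells at 8.69, 7.57 and 9.27 CPM and at 5.84, 4.17 and 5.18 CPM. At 8 h WT libraries stood at 7.29, 9.13 and 7.33 CPM and KO libraries at 6.28, 7.11 and 2.89 CPM, the last being the library with counts in the fewest genes. The count of members past this test was moved by 19 of the 30 fits that left out 1 library. It was 3 and 2 without KO Pam3 8 h replicate 1 and 2. In all the other moved fits it was 0, so the call of Ndufab1 was lost in most of the 30. Nor did it pass when only the groups compared were fitted. Of the 50-base stretches of the gene 68.8% are unique in the annotation.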

How the results depend on the processing

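Counts of members past the test kept within 1.5 times of the reported ones in 194 of 264 fits that left out 1 library, and no named log2 change turned sign in those. Over them the counts ran, at 2, 4, 6 and 8 h in turn, from 7 to 12, 8 to 15, 15 to 20 and 15 to 29 for Pam3 in WT cells, from 6 to 9, 13 to 18, 16 to 25 and 15 to 24 for R837 in WT cells, from 3 to 9, 14 to 27, 17 to 35 and 29 to 52 for Pam3 in KO cells, and from 2 to 7, 10 to 17, 16 to 19 and 16 to 23 for R837 in KO cells. Between genotypes they ran from 0 to 19, 0 to 25 and 15 to 43 at 4, 6 and 8 h of Pam3 and from 0 to 1 and 2 to 5 at 6 and 8 h of R837. Between ligands they were 1 at 4 h and ran from 0 to 2 at 8 h, and for the interaction with Pam3 from 0 to 3.
With library totals alone the counts were 23 and 27 at 2 and 4 h of Pam3 and 18, 57, 57 and 46 over the times of R837 in WT cells (55 in the F-test over times), 22 and 26 at 2 and 8 h of Pam3 and 44, 61, 54 and 54 over R837 in KO cells, 7 and 4 between genotypes at 4 and 6 h of Pam3 and 5 and 7 at 4 and 6 h of R837, and 19, 27 and 5 between ligands at 4, 6 and 8 h. Atp5f1 at 4 h of R837 then turned to -0.027. When only the groups compared were fitted, they were 21, 30, 43 and 40 over Pam3 and 26, 38 and 41 at 2, 4 and 6 h of R837 in WT cells (42 in the F-test), 3, 17 and 10 at 2, 6 and 8 h of Pam3 and 8 at 2 h of R837 in KO cells, 2, 6, 0 and 0 between genotypes over Pam3 and 1, 5 and 1 at 4, 6 and 8 h of R837, 7, 4 and 0 between ligands at those times, and 0 for the interaction with Pam3.
With the offset for exon width, chosen after seeing the data, they were 23 and 33 at 4 and 6 h of Pam3 in WT cells, 13 and 11 at 2 h of Pam3 and R837 in KO cells, 1 and 6 between genotypes at 2 and 6 h of Pam3 and 2, 4 and 9 at 4, 6 and 8 h of R837, 8 and 6 between ligands at 4 and 6 h, and 2 for the interaction. With no filter they were 5 at 2 h of Pam3 and 12 at 4 h of R837 in WT cells, 3 at 2 h of R837 in KO cells, 8 between genotypes at 4 h of Pam3 and 0 and 1 at 6 and 8 h of R837, 2 between ligands at 6 h and 2 for the interaction. Between genotypes at 2 h of Pam3 and at 4 h of R837 DESeq2 called 1 member each, limma voom called 1 at 4 and 6 h of R837, and between ligands at 8 h voom called 0 and RLE size factors gave 1. Without the assembly factors 1 member passed between genotypes at 6 h of R837 and 0 between ligands at 4, 6 and 8 h. The cause of these moves was not tested.
A replicate block over genotypes gave 1 call between genotypes at 2 h of Pam3 and 1 at 4 h of R837, in place of 0, and changed no other count beyond 1.5 times. Between genotypes the correlations of same-numbered libraries ran from -0.175 to 0.127, so there the libraries share only a number. With the Y-linked set as a term, chosen after seeing the data, counts between genotypes were 2 and 4 at 2 and 6 h of Pam3 and 2 at each of 2 and 4 h of R837, and no other count moved beyond 1.5 times.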
